A study of Mus musculus with 4 samples.

Results

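The genes of the RUNX transcription factors (Runx1, Runx2 and Runx3) and of their shared partner CBFβ (Cbfb) were examined for accessible chromatin in EpRas cells. They are 4 of 21829 protein-coding genes, and they were taken by name. For each gene, every FAIRE-positive region was collected in the mm10 gene body and in the 50 kb upstream of its first transcription start. This gave 32 of the 35796 regions found in the whole series, with 16 at Runx1, 10 at Runx2, 1 at Runx3 and 5 at Cbfb. In mm10, Runx1 (ENSMUSG00000022952.17) lies at chr16:92601466-92826149 and Runx2 (ENSMUSG00000039153.16) at chr17:44495987-44814797, both on the minus strand. Runx3 (ENSMUSG00000070691.10) lies at chr4:135120652-135177990 and Cbfb (ENSMUSG00000031885.14) at chr8:105170674-105217989, both on the plus strand.

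FAIRE-seq sequences the DNA that is not crosslinked to protein by formaldehyde, and so marks accessible chromatin. EpRas is the H-Ras-transformed derivative of the mouse mammary gland epithelial line EpH4, so each library carries oncogenic Ras, and each comes from siRNA-transfected cells at day 4. The 4 libraries came from untreated cells given control siRNA (siControl), from siControl cells treated with 1 ng/ml TGF-β3, and from cells treated likewise and given either of 2 siRNA sets against the ETS factor genes Etv4 and Etv5 (siEtv4/5 set 1 and set 2). Each group held 1 list of regions, which may combine 2 biological replicates, so no replicate spread and no p-value can be given, and the intervals below cover counting error only. Levels of Etv4 and Etv5 themselves are not measured by FAIRE-seq.

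RUNX proteins bind DNA through the Runt domain, and CBFβ, which does not contact DNA itself, strengthens that binding. RUNX1 is known for blood cell formation and for the luminal cells of the mammary gland, RUNX2 for bone formation and for invasive mammary tumour cells, and RUNX3 for T cells, sensory neurons and gastric epithelium. Each Runx gene is transcribed from a distal promoter (P1) and a proximal promoter (P2), which give proteins with different amino-terminal ends, whereas Cbfb has a single promoter.

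The lists held 22247 peaks in untreated siControl cells, 28754 in TGF-β-treated siControl cells, 22516 for set 1 and 14925 for set 2. Relative depth, taken from the lowest background of each library and set to 1 in siControl with TGF-β, was 0.939, 1.06 and 1.27 in the untreated, set 1 and set 2 libraries, so the shortest list came from the deepest library. Among 12 epithelial marker genes, a promoter region was called in 9, 8, 6 and 4, in the order untreated, TGF-β, set 1 and set 2, which is the order used below, against 36.9%, 39%, 35% and 28% of all protein-coding genes. Among 12 markers of blood, endothelial and other cells, only Pecam1 was called, in siControl with TGF-β. Since bulk libraries were used, fewer cells with an open region and less signal per cell cannot be told apart. The authors' fold enrichment, the summit signal over local background, had medians of 8.19, 8.44, 7.91 and 7.15 over all peaks. The lowest median thus came from the deepest library, and how well each library was enriched was not tested.

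The sequences of the promoters and of the leading intronic regions are shown first, since the results turn on which of them were called. All are written 5′ to 3′ on the strand of the gene, from mm10. Capitals mark RUNX (TGTGGT), ETS (GGAAGT) and AP-1 (TGANTCA) motifs found on either strand, so that a RUNX motif on the opposite strand reads ACCACA and an ETS motif ACTTCC. No capitals of one motif overlap those of another. The P1 promoters of the 3 Runx genes are shown because each holds a RUNX motif in the 300 bp upstream of its first start, whole for Runx1 and as the stretch around the motif for Runx2 and Runx3.
Runx1 P1, chr16:92826150-92826449, minus strand: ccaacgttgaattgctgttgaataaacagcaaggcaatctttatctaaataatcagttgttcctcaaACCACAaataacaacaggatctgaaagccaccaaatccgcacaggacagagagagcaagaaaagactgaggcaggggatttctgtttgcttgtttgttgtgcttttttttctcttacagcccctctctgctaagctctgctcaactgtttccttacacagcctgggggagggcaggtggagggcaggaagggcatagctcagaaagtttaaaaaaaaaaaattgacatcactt
Runx2 P1, chr17:44814939-44814998, minus strand: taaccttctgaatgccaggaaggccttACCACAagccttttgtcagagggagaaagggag
Runx3 P1, chr4:135120484-135120551, plus strand: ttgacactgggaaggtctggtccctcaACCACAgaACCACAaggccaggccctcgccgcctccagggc

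The next sequences are the upstream part of the region at Runx1 P2 and the region at the Cbfb promoter, which were called in different libraries. The former holds none of the 3 motifs, and the latter holds 1 ETS motif.
Runx1 P2, chr16:92697329-92697531, minus strand: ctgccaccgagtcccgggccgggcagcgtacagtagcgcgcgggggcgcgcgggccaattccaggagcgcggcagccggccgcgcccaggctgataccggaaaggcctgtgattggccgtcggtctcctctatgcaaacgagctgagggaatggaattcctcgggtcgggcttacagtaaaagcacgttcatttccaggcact
Cbfb promoter, chr8:105170399-105170635, plus strand: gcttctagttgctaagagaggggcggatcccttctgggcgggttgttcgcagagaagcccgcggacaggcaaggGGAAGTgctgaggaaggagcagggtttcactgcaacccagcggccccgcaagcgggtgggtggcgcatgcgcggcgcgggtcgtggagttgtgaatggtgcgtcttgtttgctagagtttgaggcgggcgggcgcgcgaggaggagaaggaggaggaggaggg

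The last sequences are intronic. The Runx1 intron region was called in every library and holds a RUNX motif followed by an ETS motif and then an AP-1 motif, and the Runx2 intron region was not called with set 2 and holds 2 AP-1 motifs.
Runx1 intron, chr16:92653895-92654194, minus strand: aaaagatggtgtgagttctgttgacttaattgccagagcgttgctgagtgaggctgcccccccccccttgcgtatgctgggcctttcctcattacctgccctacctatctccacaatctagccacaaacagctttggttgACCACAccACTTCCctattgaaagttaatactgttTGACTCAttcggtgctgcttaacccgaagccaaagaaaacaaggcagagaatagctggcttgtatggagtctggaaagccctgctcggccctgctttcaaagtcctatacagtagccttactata
Runx2 intron, chr17:44770933-44771186, minus strand: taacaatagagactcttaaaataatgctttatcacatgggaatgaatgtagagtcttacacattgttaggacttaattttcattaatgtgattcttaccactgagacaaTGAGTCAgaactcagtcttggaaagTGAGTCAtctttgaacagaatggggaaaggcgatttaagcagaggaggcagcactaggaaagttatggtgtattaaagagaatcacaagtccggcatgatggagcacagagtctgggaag

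A RUNX motif was present in the 300 bp upstream of the first start in all 3 P1 promoters, once in Runx1 and Runx2 and 2 times in Runx3. It was absent from the same windows of the 3 P2 promoters and of Cbfb. Among all protein-coding genes, 15.6% had at least 1 match in such a window and 1.51% had at least 2. The ETS motif was found in the Cbfb window alone, against 22.6% of all genes. The AP-1 motif was found in the Runx2 P1 window alone, against 7.05% of all genes. A match is a description of the letters and does not show that a factor was bound.

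The 32 regions were distributed unevenly over the genes. Of them, 20 lay in introns, 6 at Runx promoters or the Cbfb promoter, and 6 further upstream, where a promoter region is one whose nearest edge lies within 2 kb of an annotated start. Runx1 had 5.82 regions per 100 kb of gene body and upstream sequence, more than 83.6% of all protein-coding genes, and Cbfb had 5.14, more than 78.7%. Runx2 was close to the middle of all genes with 2.71 per 100 kb, and Runx3 had 0.932, where the median of all genes was 1.97. The single region at Runx3 was not unusual by number alone, since 44.2% of all genes had at most 1 region.

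**Figure D1:**
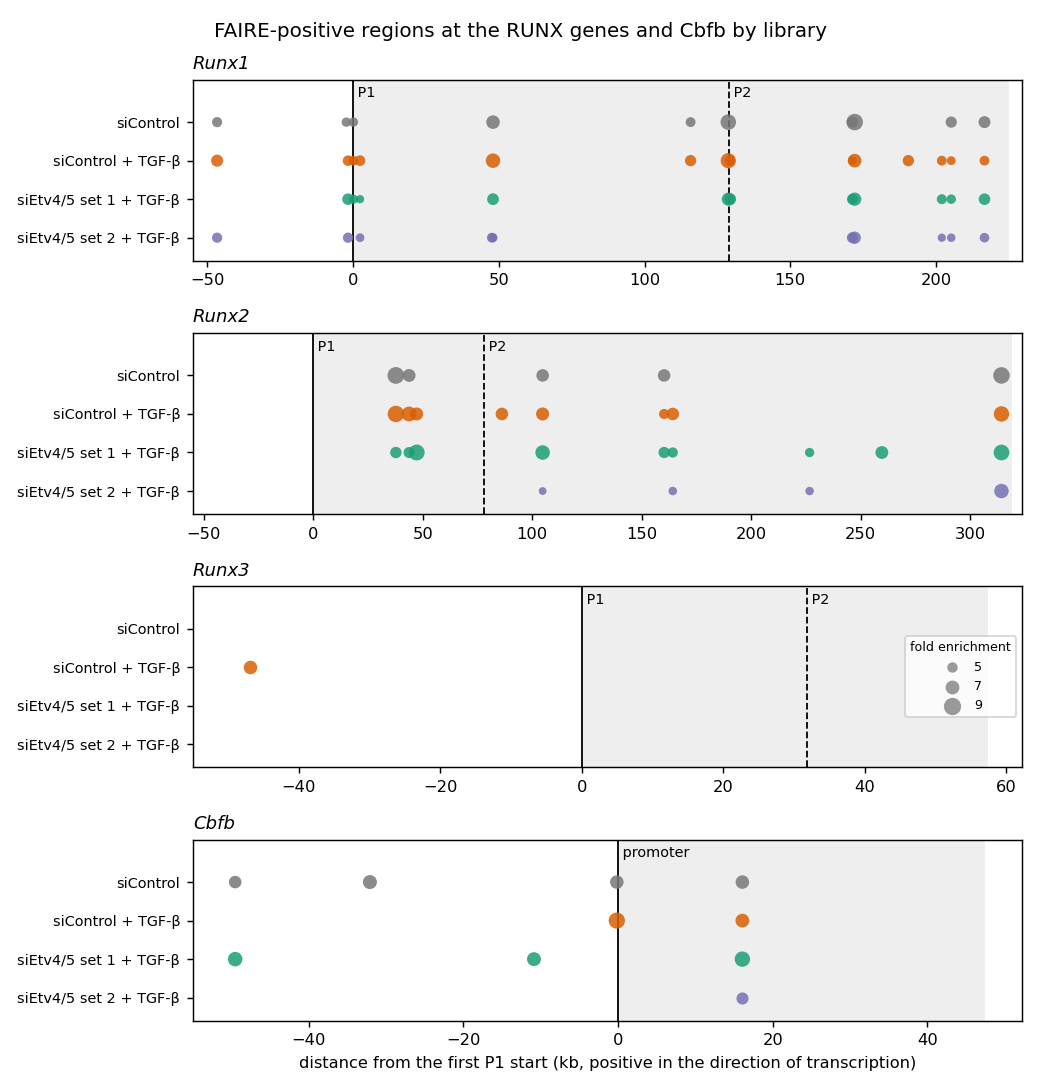
FAIRE-positive regions at the 4 genes in the 4 libraries. The horizontal axis is the distance from the first P1 start in kb, positive in the direction of transcription; each point is a called region, its area grows with the square of the fold enrichment, grey marks the gene body and vertical lines mark the promoters. Runx1 and Runx2 have regions along the gene, Runx3 has 1 region in 1 library, and the Cbfb promoter has a point in both siControl libraries and none with either siRNA set.

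The fold enrichment given below is the authors' value, the fragments over the summit of a region relative to the local background, with a pseudocount of 1 on both. The number of fragments at the summit was solved from this value together with the p-value of the peak. A region with no peak in a library is called absent there, which means that it did not pass the authors' threshold, not that it was closed. For such a library, the number of fragments a call needed was estimated from the background of the other libraries.

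At Runx1 P1 (chr16, first start at 92826149, minus strand), a region was found over the start in 3 libraries (chr16:92825918-92826204). Its fold enrichment was 5.49 in untreated cells, 5.83 with TGF-β and 5.34 with set 1, with 22, 28 and 26 fragments at the summit. It was not called with set 2, where about 20 fragments were needed. The siControl values without and with TGF-β overlapped in their 95% Poisson intervals, which ran from 13.8 to 33.3 and from 18.6 to 40.5 fragments. The 300 bp around the middle of this region held 3 RUNX motifs.

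The flanks of the P1 start showed another pattern. A region 1.75 kb before the start (chr16:92827795-92828001) was not called in untreated cells, where about 17 fragments were needed, and had a fold enrichment of 6.20, 6.77 and 6.03 in the TGF-β, set 1 and set 2 libraries. A region 2.37 kb after the start (chr16:92823678-92823884), in an intron and within 2 kb of another P1 start, was likewise absent from untreated cells and had 6.25, 4.84 and 5.13. Thus, Runx1 P1 was called in every library, but with set 2 only through its flanks, neither of which lies within 1 kb of a start. Among all regions of siControl with TGF-β that had a similar number of fragments, 15.3% and 18.1% were not called in untreated cells for the former and the latter flank. These shares were not matched on local background. At the flanks it was 3.60 and 3.42 times the lowest of that library, against a median of 1.55 over all its regions. A region called in untreated cells alone lay 2.34 kb before the start, with a fold enrichment of 5.46.

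At Runx1 P2 (first start at 92697328, 128.821 kb downstream of P1), the region over the start (chr16:92697308-92697531) was the strongest promoter region of Runx1. It had 35 fragments in untreated cells, 36 with TGF-β and 31 with set 1, and a fold enrichment of 9.04, 8.85 and 7.64. The intervals of these fragment numbers overlapped widely (24.4 to 48.7, 25.2 to 49.8 and 21.1 to 44). It was not called with set 2, where about 18 fragments were needed. Of 2241 regions of siControl with TGF-β with 34 to 38 fragments, 349 (15.6%) were not called with set 2. This share was likewise not matched on local background, which was 2.75 times the lowest of that library at P2, against a median of 1.55. A second P2 region, 0.56 kb after the start in the 5′ untranslated exon, was called with TGF-β (6.08) and set 1 (6.96) and in neither of the other libraries.

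The P1 and P2 promoters of Runx1 differ in base composition. In the 501 bp around the first start, the observed over expected CpG ratio was 0.25 at P1 and 0.961 at P2. The same contrast held at Runx2 (0.082 and 0.803) and Runx3 (0.347 and 0.987), and the Cbfb promoter was CpG-rich (0.949). However, no region was called at either promoter of Runx2 or of Runx3 in any library. All protein-coding genes were also classed by the CpG ratio at their first start. Those with a ratio of at least 0.6 had a region near any of their starts in 59.2%, 61.9%, 56.1% and 45.8% of cases in the 4 libraries. The other genes had one in 10.3% to 16% of cases. The first starts of Runx1, Runx2 and Runx3 are all those of P1, so each of these genes falls in the less often called class. Runx1 was nevertheless called in every library, so the class does not separate it from Runx2 and Runx3. CpG-rich P2 promoters were not rated on their own.

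The Cbfb promoter region (chr8:105170399-105170635) ended 39 bp before the first start. It had 24 fragments in untreated cells and 29 with TGF-β, and a fold enrichment of 7.90 and 9.51. It was called with neither siEtv4/5 set, where about 15 fragments were needed in each library. Of 4751 regions of siControl with TGF-β with 27 to 31 fragments, 16.3% were not called with set 1 and 36.4% were not called with set 2. The pattern of a promoter called in both siControl libraries and with neither set was found in 544 protein-coding genes (2.49%). That share is of all genes, of which 56.5% had no promoter region in any library. The other genes called in both siControl libraries were called with both sets (5314), with set 1 only (1294) or with set 2 only (265).

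Counted by gene, a promoter region was called at Runx1 and Cbfb, that is 2 of the 4 genes, in untreated cells (36.9% of all protein-coding genes) and with TGF-β (39%). It was called at Runx1 alone with set 1 (35% of all genes) and with set 2 (28%). Of the 2 genes called in siControl with TGF-β, 1 was not called with set 1 and 1 was not called with set 2, in both cases Cbfb, whereas 16.5% and 31.5% of all called promoters were not. Runx2 and Runx3, 2 of 4, had no promoter region in any library, as had 56.5% of all genes. With 4 genes, these shares are descriptions only.

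**Figure D2:**
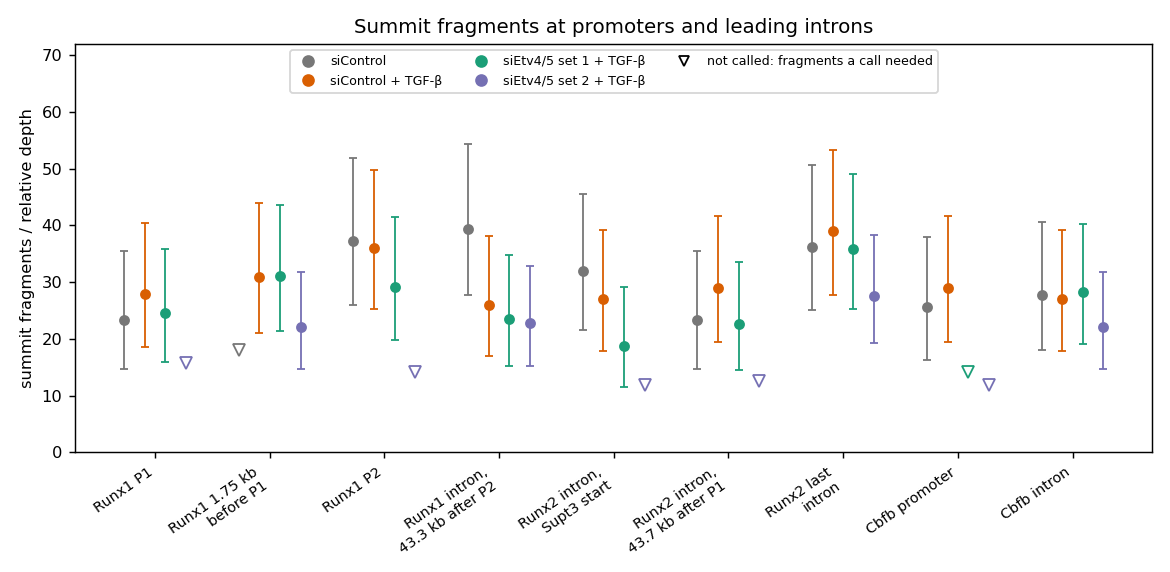
Fragments at the summit of promoter regions and leading intronic regions, divided by the relative depth of the library (vertical axis). Points are called regions with exact 95% Poisson intervals. Open triangles stand at the estimated number of fragments a call needed where none was made. Runx1 P2 lacks a call with set 2, and the Cbfb promoter lacks one with both sets. The Cbfb intron and the region labelled Runx2 last intron were called in every library. The latter is the intronic region nearest to the 3′ end of Runx2.

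Within Runx1, 5 of the 9 regions in introns were called in every library, and 0 of the 5 promoter regions. Over the whole series, this share was 44.8% of the regions within 2 kb of a protein-coding start and 23.3% of the others. The region 43.3 kb downstream of P2 (chr16:92653877-92654214), whose sequence carries the RUNX, ETS and AP-1 motifs, had a fold enrichment of 9.67, 7.99, 7.77 and 7.25 in the 4 libraries. The fragments numbered 37, 26, 25 and 29, the highest in untreated cells. The region 48.0 kb downstream of P1 (chr16:92778005-92778283), which also carries all 3 motifs, had 7.92, 8.45, 6.85 and 5.24, with the lowest value in set 2. Its 17 fragments with set 2 fell below the 26 of siControl with TGF-β, and after division by depth the log2 ratio was -0.96 with a counting interval from -1.84 to -0.08. The median of all regions on this scale was -0.71, which lies inside that interval. The region 87.8 kb downstream of P2 had 6.97, 5.75, 6.77 and 5.62. Upstream, a region 46.7 kb before P1 was called with 5.94, 7.07 and 5.97 in untreated cells, with TGF-β and with set 2, and was absent with set 1.

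At Runx2, all 10 regions were intronic. The strongest lay 37.7 kb downstream of P1 (chr17:44776972-44777213), where it also covers the start of Supt3, a gene of the SAGA complex that overlaps Runx2, so the region cannot be assigned to either gene. Its fold enrichment was 9.80 in untreated cells, 9.60 with TGF-β and 6.68 with set 1, and it was not called with set 2. The region at 47.2 kb from P1 (chr17:44767480-44767718) was absent from untreated cells, had 7.57 with TGF-β and 9.31 with set 1, and was absent with set 2. Between them, the region at 43.7 kb, whose sequence is shown above and which was singled out after its values were seen, had 7.55, 8.67 and 6.46 and was absent with set 2. Thus, the cluster of 3 regions between P1 and P2 was called in full with TGF-β and with set 1, in part in untreated cells, and not at all with set 2. Regions with a similar number of fragments in siControl with TGF-β were not called with set 2 in 43.9%, 36.4% and 57% of cases, in order from P1. Single absences of this kind were thus common in that library.

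By contrast, the intronic region nearest to the 3′ end of Runx2, 236 kb downstream of P2 (chr17:44500288-44500839), was called in every library. Its fold enrichment was 9.66, 9.0, 9.19 and 8.45, with 34, 39, 38 and 35 fragments. These values differed by less than their counting error, and after division by depth the log2 ratio of set 2 to siControl with TGF-β was -0.50 with an interval from -1.16 to 0.16. The region 26.6 kb downstream of P2, which overlaps the antisense gene Runx2os2 and its start, was also called throughout, with 7.34, 7.63, 8.47 and 4.52, and was singled out after its values were seen. Its set 2 value was the lowest of any Runx2 region, and the depth-scaled log2 ratio to siControl with TGF-β was -0.91, with an interval from -1.71 to -0.11 that again holds the median of all regions.

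Runx3 had no region in its gene body in any library. Its only region lay 47.0 kb upstream of P1 (chr4:135073595-135073739) and was found only in TGF-β-treated siControl cells, where it had 16 fragments and a fold enrichment of 7.88. Of 6009 regions with 14 to 18 fragments in that library, 63.4% were not called in untreated cells, 61.7% with set 1 and 81.8% with set 2, so most regions of this strength were missing from each of the other lists.

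Apart from its promoter, Cbfb had 1 intronic region, 16.1 kb downstream of the start (chr8:105186571-105186944). It was called in every library with a fold enrichment of 7.90, 8.06, 8.98 and 7.07, and with 26, 27, 30 and 28 fragments, which differed by less than counting error. The 3 regions upstream of Cbfb were called in untreated cells and with set 1 (49.5 kb before the start, 7.33 and 8.49), in untreated cells alone (32.1 kb, 8.19) and with set 1 alone (10.9 kb, 8.13). None of the upstream regions was called in siControl with TGF-β or with set 2, and the one at 32.1 kb lies in the neighbouring gene Ces4a. Hence the promoter was absent with set 1 while the intron was at its highest fold enrichment there.

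For the comparison of TGF-β with untreated siControl cells, 16 regions were called in both, 9 of the 25 regions with TGF-β were not called in untreated cells (gained) and 3 of the 19 untreated regions were not called with TGF-β (lost). The gained share was close to the 36.9% of all regions, and the lost share to the 18.4%. By gene, 5 regions were gained at Runx1, 3 at Runx2, 1 at Runx3 and 0 at Cbfb, whereas 1 was lost at Runx1 and 2 at Cbfb. The lost regions all lay upstream of their genes. When every list was cut to its 14925 most significant peaks, the 4 genes kept 13, 10, 14 and 15 regions, with 1 of 10 gained and 4 of 13 lost, against 34.4% of all regions in both cases, so the number gained depended on the length of the lists.

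For the comparison of the siEtv4/5 sets with siControl under TGF-β, 6 of the 25 regions were not called with set 1, against 33.7% of all regions, and 12 were not called with set 2, against 53.6%. As deposited, both shares were below those of all regions. By gene, 3 were absent with set 1 at Runx1, and 1 each at Runx2, Runx3 and Cbfb; with set 2, 5 were absent at Runx1, 5 at Runx2, and 1 each at Runx3 and Cbfb. The sets shared 5 absent regions, but the share of all regions absent with both was not counted, so this number is a description only. Both comparisons use the same siControl library. At equal list length, 4 of the 10 regions left in siControl with TGF-β were absent with set 1 (40%, against 31.4% of all regions) and 5 of 10 with set 2 (50%, against 33.4%), so that both shares were then above those of all regions. Of the 9 regions gained with TGF-β, 6 were called with set 1, against 40.5% of all gained regions, and 4 with set 2, against 17.9%. These shares were not matched on the number of fragments. In siControl with TGF-β, 40% of all regions with 26 to 30 fragments were not called with set 2, against 76.85% of those with 16 to 20. At equal list length, 1 gained region was left.

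Of the 32 regions, 8 were called in every library (29.6% of all regions), 10 in 3 libraries, 6 in a pair of libraries and 8 in 1 library alone (31.5% of all regions). All 8 regions of the former group were intronic, 5 in Runx1, 2 in Runx2 and 1 in Cbfb. At equal list length, 4 of 25 were called in every library (26.9% of all regions). Without the set 2 library 13 were called in the other 3, and the share of all regions was not counted for this case. The regions called in 1 library alone had between 16 and 28 fragments and included 3 of Runx1, 2 of Runx2, 1 of Runx3 and 2 of Cbfb.

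At the 8 regions called in every library, the levels themselves could be compared. The median log2 ratio of fold enrichment for TGF-β over untreated was -0.19, against 0.14 over all 10594 such regions, and all 8 lay below that overall median, from -0.35 to 0.09. In contrast, for set 1 over siControl the median was 0.12 against -0.18 over all regions, and for set 2 it was -0.12 against -0.40, with 7 and 6 of the 8 above the overall median. With summit fragments divided by relative depth, the medians were -0.22, -0.04 and -0.37, against 0.17, -0.26 and -0.71 over all regions, so the direction of the set 1 median turned while its place relative to all regions did not. Past a change of 1.5-fold in either direction were 0 of the 8 with TGF-β (7.36% of all regions), 0 with set 1 (7.55%) and 2 with set 2 (26.9%), the latter being the Runx1 region 48.0 kb from P1 (-0.69) and the Runx2 region at Runx2os2 (-0.75). The counting error of a single ratio was 0.33 to 0.48 on the log2 scale, which is as large as most of these differences. The TGF-β-treated siControl library enters all 3 comparisons. The 8 regions are also not independent, since 5 lie in Runx1. Neighbouring regions there can share the 10 kb from which the local background is taken.

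**Figure D3:**
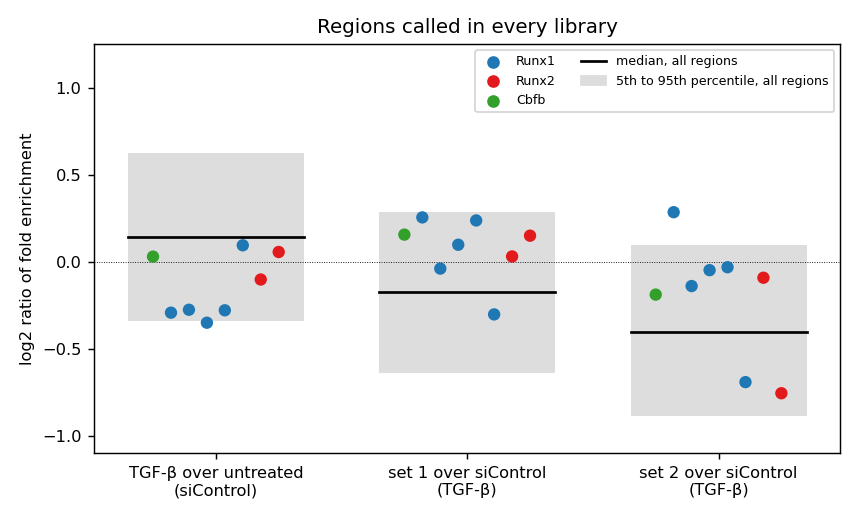
Log2 ratios of fold enrichment (vertical axis) at the 8 regions of Runx1, Runx2 and Cbfb that were called in every library, for the 3 comparisons. The black line is the median and the grey band the 5th to 95th percentile of all 10594 such regions; with TGF-β all 8 points lie below the line, and with the sets 7 and 6 lie above it.

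The 4 genes also differed in their local background, which is the number of reads in the 10 kb around a summit relative to the lowest background the caller uses for the whole library. At the Runx1 regions its median was 2.83, 2.72, 2.77 and 2.48 times this floor, higher than at 92.1%, 90.3%, 93.5% and 91.8% of all regions. At Runx2 it was 2.07, 2.1, 2.29 and 2.34. The Runx3 region was at the floor (1.00), and the Cbfb regions ranged from 1.00 to 2.31. A region at Runx1 therefore needed more fragments to be called than most, and its fold enrichment is lower for the same number of fragments. The shares given above for regions with a similar number of fragments were not matched on this background.

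**Figure D4:**
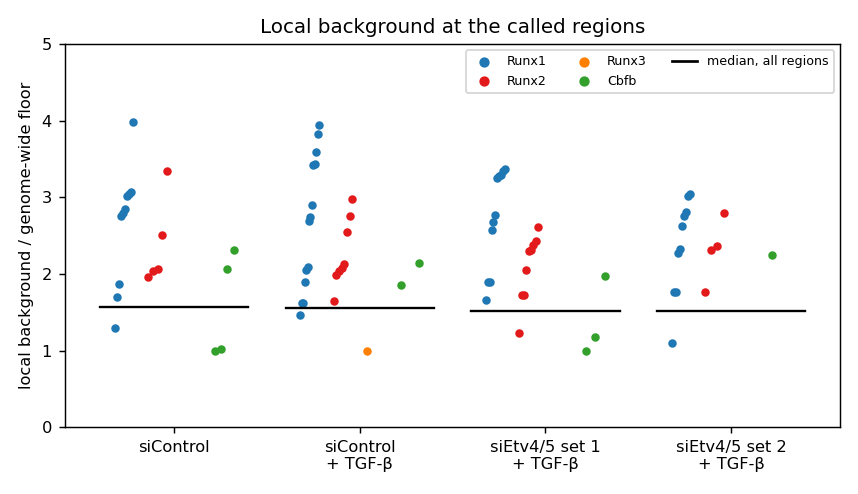
Local background at each called region of the 4 genes as a multiple of the floor of its library (vertical axis), by library and gene. Black lines are the medians of all regions, between 1.52 and 1.57; most Runx1 and Runx2 points lie above the line in each library.

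An AP-1 motif was found in the 300 bp around the middle of 21 of the 32 regions (65.6%), against 40.9% of all 35789 regions with sequence. It was present in 11 of 16 regions at Runx1, 6 of 10 at Runx2, 1 of 1 at Runx3 and 3 of 5 at Cbfb. The RUNX motif was found in 9 (28.1%, against 26.1%), of which 6 were at Runx1, 1 at Runx2 and 2 at Cbfb. The ETS motif was found in 9 (28.1%, against 25.7%), of which 7 were at Runx1. Of the 8 regions called in every library, 6 held an AP-1 motif, 2 a RUNX motif and 2 an ETS motif. Most of the 32 regions were intronic or upstream, whereas the shares of all regions mix such regions with promoter regions. Motifs at promoter and other regions of the whole series were not counted apart, and the shares were not tested.

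The promoters of other genes of the pathway were counted in the same way. Among 20 partners and co-regulators of RUNX proteins, a promoter region was called in 12, 15, 13 and 10, with 8 called in every library and 4 in none (Tle2, Kat6a, Runx1t1 and Cbfa2t3). The highest fold enrichment was at Cbfa2t2, a corepressor of the ETO family, with 12.6, 13.3, 7.59 and 5.54. The histone deacetylase genes Hdac1 and Hdac3 followed. Hdac1 had 11.6, 11.6 and 10.0 and was not called with set 2, and Hdac3 had 11.4 and 10.2 in the siControl libraries and 8.33 with set 2 and was not called with set 1. Most of these promoters were therefore called in siControl cells, in contrast to those of Runx2 and Runx3. Over all protein-coding genes, the shares of called promoters were 36.9%, 39%, 35% and 28%, and the lists were not tested against them.

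Among 16 textbook targets of RUNX proteins, a promoter region was called in 4, 6, 5 and 2, with 8 called in no library. The cell cycle inhibitor gene Cdkn1a was the only one called in every library, with 6.83, 8.32, 7.75 and 5.93. The promoter of the gelatinase gene Mmp9 was called with TGF-β (7.80) and set 1 (8.75) and not in untreated cells or with set 2. That of Spp1, which encodes osteopontin, had 7.40, 8.38 and 5.99 and was absent with set 2, and that of Elf5, an ETS factor of luminal progenitors, was called with set 1 alone (8.94). Of the 6 target promoters called in siControl with TGF-β, 3 were not called in untreated cells (12.9% of all promoters called with TGF-β), 2 were absent with set 1 (16.5%) and 4 were absent with set 2 (31.5%). Of the 4 called in untreated cells, 1 was not called with TGF-β (7.87%). It was the promoter of Mmp13, which had 5.77 in untreated cells and was called in no other library. These counts are small and were not tested.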

How the data were processed

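FAIRE-seq was carried out in EpRas cells in 4 groups, taken from the labels, with 1 peak list per group. The authors trimmed the reads, mapped them to mm10 with Bowtie and called peaks with MACS2 (version 2.1.0 per the labels), and the control used for calling is not given in the sources used here. For each peak, the deposited lists hold the authors' fold enrichment, a ratio of summit signal to local background. They further hold the authors' p-value and q-value on a −log10 scale, the summit position and a score, and the score was not used here.

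The number of fragments at each summit and the local background were solved from the deposited fold enrichment, taken with a pseudocount of 1, and the Poisson p-value. The solution matched the p-value within 0.001 on the log10 scale in 100% of peaks, and the procedure was tested on simulated data. Backgrounds above the floor equalled whole reads per 10 kb, within 0.05, in 100% of cases. Relative depth was the floor per base of fragment length, with siControl with TGF-β set to 1. At the floor, 10 fragments were needed for a call in untreated cells and 11 in each other library.

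Peaks of the 4 lists that overlapped by at least 1 bp were merged into regions, and all 35796 lay inside the chromosomes of the reference. Gene bodies and starts came from GENCODE vM21 (GRCm38, the build of mm10), and P1 and P2 were told apart by the start codons of protein-coding transcripts. All promoter regions were named, then up to 3 further regions with the highest fold enrichment in the gene body and up to 3 upstream of each gene. For each pathway list, up to 3 promoters with the highest fold enrichment were named. Beyond this rule, Cdkn1a, Mmp13 and the partners called in no library were named. Promoters most like those of the members were sought among promoters called in every library, and no single promoter region of the members met this condition. The members and lists were chosen with earlier results of these data known. Alternatives were a −log10 q-value of at least 6, an overlap of 50%, equal list length, the gene body alone, 100 kb upstream, promoters within 1 kb, 2 other scales for ratios, and motifs within regions as called. Leaving out set 2 was added after seeing the data. The intervals are exact 95% Poisson intervals and cover counting error only. Python 3.11.15, numpy 2.4.6, scipy 1.17.1, pandas 2.3.3, pyfaidx 0.9.0.4 and matplotlib 3.10.9 were used.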

Additional observations from a re-analysis of the deposited data

How the results depend on the processing

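Of 62 alternative values, 51 kept their direction and stayed within the range set for a stable value, 9 moved and 2 changed sign. With every list at the 14925 most significant peaks, the 4 genes had 10 regions with TGF-β (25 as deposited) and 14 with set 1 (23). At that length, 4 of 25 regions were called in every library (8 of 32 as deposited), 1 of 10 was gained with TGF-β (9 of 25) and 5 of 10 were absent with set 2 (12 of 25). Over all regions at that length, the shares were 26.9%, 34.4% and 33.4%. With the gene body alone, 0 regions were lost with TGF-β (3) and 3 were absent with set 1 (6). With promoters limited to 1 kb from a start, 0 promoters were called with set 2, in place of Runx1 P1. Without the set 2 library, an alternative chosen after seeing the data, 13 regions were called in every library, with no share of all regions counted. The median log2 ratio of set 1 over siControl changed from 0.12 to -0.042 with depth-scaled fragments. That of set 2 changed from -0.12 to 0.29 after centring on all regions, and the latter sign is relative to a genome-wide decrease. The causes were not tested. With 1 list per group, no spread between replicates was available. No paired analysis was possible because each group held a single list. Regions with about 10 to 20 fragments lie near the limit of detection, so an absence there shows only that the threshold was not passed.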
